A study of Mus musculus with 4 samples.

Results

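The BCL2 family decides whether a cell keeps its mitochondrial outer membrane intact or opens it and dies. Its pro-survival proteins hold back the pore-forming effectors BAX and BAK, and the BH3-only proteins release that hold by binding the pro-survival proteins or by acting on the effectors. In T cells the family is known for setting the lifespan of resting cells, for removing activated cells once antigen or cytokine is gone, and for deleting self-reactive cells. The members described here are Bcl2, Bcl2l1 and Mcl1 on the pro-survival side, the effectors Bax and Bak1, and the BH3-only genes Bcl2l11, Bid, Bad, Bbc3 and Pmaip1. They were found as every probe set that the platform's annotation assigns to 1 of these genes alone, which gave 24 of 22690 probe sets for 9 of the 10 genes. Bax had no such entry in the annotation used and is not analysed here.

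Total RNA from CD4 cells was measured on 4 Affymetrix MOE430A arrays, 2 of san/san mice, homozygous for the sanroque variant, and 2 of +/+ wild type mice. Sanroque came from a screen for antinuclear autoantibodies in pedigrees of C57BL/6 males treated with the mutagen ENU, and is known as a variant of Rc3h1, the gene of the RNA-binding protein Roquin-1. The labels used here do not give age, sex or how many mice each array stands for, so the p-values measure array-to-array spread, part of which may be technical. Per the experiment information, the arrays numbered 1 in each genotype were hybridised and scanned on 1 day and those numbered 2 on another, so each change could be read within day 1 and within day 2. The same information describes the day 1 RNA as that of sorted T cells and carries the letters CBA for wild type array 2, which the labels do not explain, so strain and genotype cannot be told apart with certainty.

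Signals are 1 value per probe set on a linear scale, already scaled by the authors to a common mean. The median signal was 40.4 and 32.3 on sanroque arrays 1 and 2, against 36.7 and 30.8 on wild type arrays 1 and 2. Probe sets with a mean signal under 21.3 were not tested, which left 13585, among them 20 of the 24 family probe sets. Changes are differences of log2(signal + 6), sanroque minus wild type, and this scale understates the change of dim probe sets. Cd4 read 585.9 and 570.2 in sanroque, against 533.3 and 613.5 in wild type. Of 10 tested CD4 T cell marker genes 2 had a change above 0 and 8 below, where 54.2% of all genes were above 0. Without overlap, 0 of the 10 lay above wild type and 2 below, against 1753 above and 1283 below of all 7864 genes tested. The CD8 gene Cd8a read 68.3 and 54.5 in sanroque, against 50.1 and 46.6 in wild type, and the B cell gene Cd79a read 205.9 and 198 in sanroque, against 231.3 and 244.1 in wild type. Of 9 tested B cell marker genes 4 had a change above 0 and 5 below. Of 10 tested CD8 and NK cell marker genes 4 were above 0 and 6 below. Gzmk of that list, at 100.3 and 97.3 in sanroque, against 45.6 and 28.3 in wild type, passed the test given below. Over all genes tested, 0.776% rose. Over 7 red cell and platelet marker genes the summed signal was 1303.3 and 1376.9 in sanroque, against 932.7 and 911.8 in wild type. Of those tested, 2 were above 0 and 3 below. Over 13 neutrophil marker genes the summed signal was 1449 and 1497.7 in sanroque, against 607.2 and 587.9 in wild type, with the granule protease genes Elane and Prtn3 under a signal of 10 on every array. Over 12 macrophage and dendritic cell marker genes it was 5144.8 and 5280.9 in sanroque, against 2714.5 and 3119.2 in wild type. Of the 13 neutrophil genes 8 lay higher on both sanroque arrays than on either wild type array, as did 8 of the 12 macrophage and dendritic genes. Over all tested probe sets, 20.9% lay higher in this way. In such bulk RNA, a change in the number of cells of a type and a change in RNA per cell cannot be told apart, and the part of these cells in the results below was not tested.

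None of the 20 tested BCL2 family probe sets passed the test of sanroque against wild type (limma, Benjamini-Hochberg adjusted over the 13585 tested probe sets, threshold 0.05), where 1.06% of all probe sets passed. Their adjusted p-values lay between 0.516 and 0.995, and 0 of 20 had an unadjusted p under 0.05, against 9.89% of all probe sets. The 95% intervals of the change reached from 0.38 to 0.88 on the log2 scale to either side of the estimate. For 15 of 20 probe sets the interval lay wholly between -1 and 1. Changes of up to 1.22 downward and 1.33 upward are therefore within the intervals of the least precise probe sets. With the hybridisation day as a block, 0 of 20 passed, against 6.27% of all probe sets, and 6 of 20 had an unadjusted p under 0.05, against 19.1% of all probe sets. In that fit the lowest adjusted p of the family was 0.0888, for a probe set of Mcl1.

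**Figure D1:**
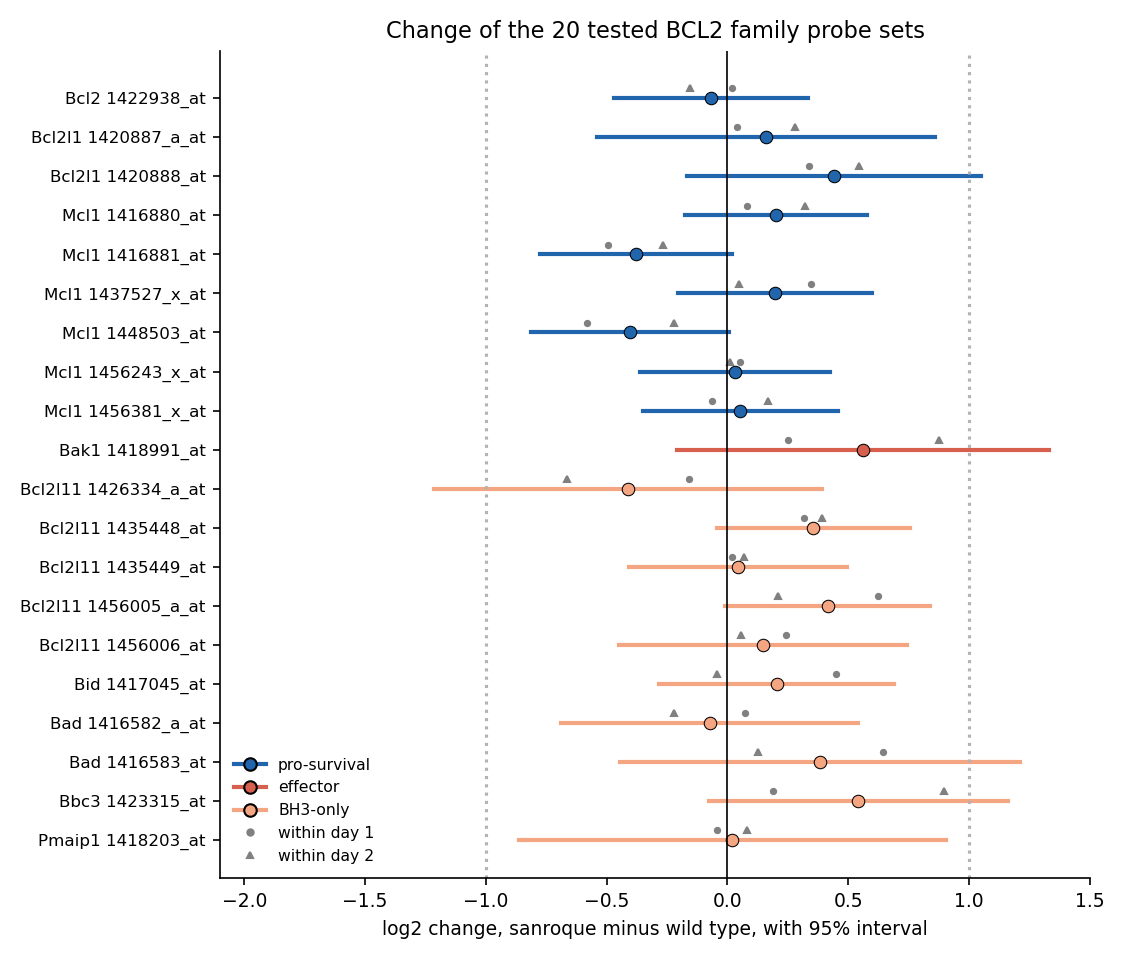
Change of each of the 20 tested BCL2 family probe sets on the log2 scale, sanroque minus wild type, with its 95% limma interval (coloured by role) and the changes within day 1 and day 2 (small grey points). Dotted lines mark changes of -1 and 1; every interval includes 0, and 15 of 20 lie between the dotted lines.

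Bcl2, the founding pro-survival gene and a main survival factor of resting T cells, read 187.3 and 191.7 in sanroque, against 184.7 and 214.3 in wild type. The sanroque values lay inside the wild type range. Its log2 change was -0.07 with a 95% interval of -0.47 to 0.33 (limma adjusted p = 0.961), and it was 0.02 on day 1 and -0.16 on day 2. That interval corresponds to a level in sanroque between 0.722 and 1.26 times that in wild type.

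Bcl2l1 encodes BCL-XL, which activated T cells induce through CD28, and by alternative splicing the shorter, pro-death BCL-XS. Its brightest probe set, 1420888_at, read 133.4 and 91.9 in sanroque, against 104.3 and 61.1 in wild type. The genotypes overlapped, because both arrays of day 2 were lower than their counterparts of day 1. Within a day sanroque was the higher array each time, by 0.34 on day 1 and 0.55 on day 2, and the overall change of 0.44 (interval -0.17 to 1.05) did not pass (limma adjusted p = 0.682, and 0.167 with the day as a block). It was 0.083 without wild type array 2 and 0.80 without wild type array 1. This was also the only 1 of the 20 probe sets with a called difference between days, of -0.61 for day 2 minus day 1 (adjusted p = 0.0484 in the limma fit with both terms, where 4.8% of all probe sets were called for the day; this day test was added after the values were seen). A dimmer probe set, 1420887_a_at, read 35.7 and 38.6 in sanroque, against 34.6 and 30.7 in wild type, a change of 0.16. The other 2 Bcl2l1 probe sets, 1426050_at and 1426191_a_at, lay below the filter, with signals of 11.3 to 15.2 and 2.4 to 3.5 in sanroque, against 7.6 to 11.8 and 3.2 to 8.7 in wild type.

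Mcl1 encodes a short-lived pro-survival protein that T cells need at all stages, and NOXA and BIM are among its binding partners. Its 6 probe sets, all tested, did not move one way. The brightest, 1437527_x_at, read 2091.7 and 1747.9 in sanroque, against 1644.2 and 1690.8 in wild type, so that sanroque was above wild type without overlap (change 0.20, interval -0.20 to 0.60). Probe set 1416880_at was likewise above, with 825.7 and 876 in sanroque, against 780.2 and 700.3 in wild type (change 0.20).

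On 2 other Mcl1 probe sets sanroque was the lower genotype without overlap. Probe set 1448503_at read 1075.7 and 1072 in sanroque, against 1614 and 1251.8 in wild type, a change of -0.40 with an interval of -0.81 to 0.01 (limma adjusted p = 0.516). Probe set 1416881_at read 395.8 and 494.9 in sanroque, against 559.6 and 596.3 in wild type, a change of -0.38 with an interval of -0.78 to 0.02 (limma adjusted p = 0.539). The remaining probe sets overlapped between genotypes. Probe set 1456243_x_at read 1365.9 and 1514.6 in sanroque, against 1317 and 1504.7 in wild type (change 0.03, interval -0.36 to 0.42), and 1456381_x_at read 827.3 and 764.9 in sanroque, against 864 and 679.9 in wild type (change 0.05). None of the 6 passed, and the direction of an Mcl1 difference therefore depends on the probe set read.

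The gap between Mcl1 probe sets was read within each day. The change of 1448503_at minus that of 1416880_at was -0.66 on day 1 and -0.54 on day 2. The change of 1448503_at minus that of the brightest probe set was -0.93 on day 1 and -0.27 on day 2. These pairs were chosen after their values were seen and were not tested. Each sets a probe set lower without overlap against one higher without overlap. The sign on both days was thereby fixed in advance and is no further evidence. A difference of this kind shows unequal change of the probe sets within the arrays, and which part of the transcript each one reads was not looked up here.

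**Figure D2:**
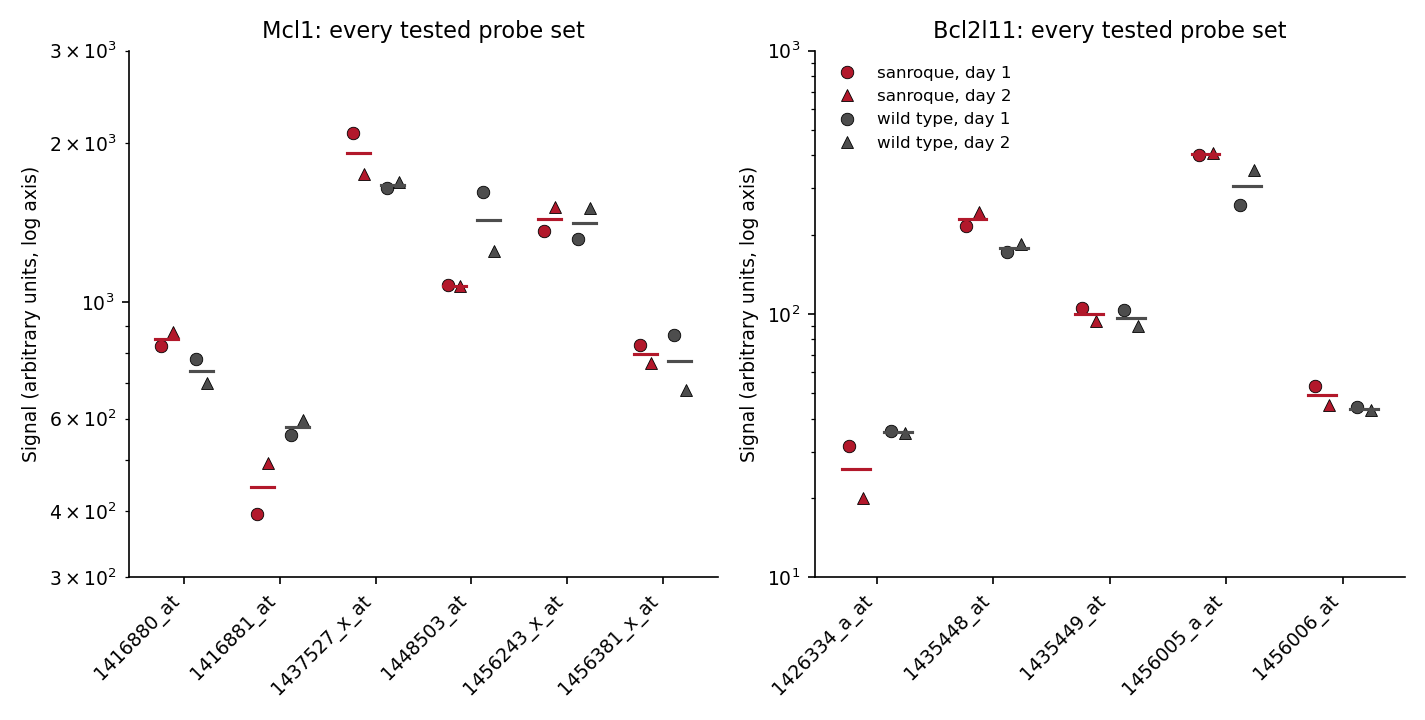
Signal (log axis, arbitrary units) of the 6 Mcl1 and 5 Bcl2l11 probe sets on each array, sanroque left of wild type, circles for day 1 and triangles for day 2, with lines at the genotype means. For Mcl1, 1416881_at and 1448503_at are lower in sanroque and 1416880_at and 1437527_x_at higher; for Bcl2l11, 1426334_a_at is lower and 3 others higher.

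Bak1 was the effector with a tested probe set. BAK sits in the mitochondrial outer membrane and forms pores there once it is activated. Probe set 1418991_at read 40 and 42.2 in sanroque, against 32.7 and 20.3 in wild type. Both sanroque arrays were above both wild type arrays, and wild type array 2 was the lowest. The change was 0.56 with an interval of -0.21 to 1.33 (limma adjusted p = 0.68), and it was 0.25 on day 1 and 0.87 on day 2. Without wild type array 2 it was 0.28, and without wild type array 1 it was 0.84. The other Bak1 probe set, 1425716_s_at, read 4 and 2.7 in sanroque, against 0.9 and 8.5 in wild type, below the filter.

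Bcl2l11 encodes BIM, the BH3-only protein known for killing T cells after cytokine withdrawal and in negative selection. The brightest of its 5 tested probe sets, 1456005_a_at, read 402.8 and 408.9 in sanroque, against 259.3 and 353.4 in wild type. Both sanroque arrays were above both wild type arrays, with a change of 0.42, an interval of -0.01 to 0.84 (limma adjusted p = 0.516), 0.62 on day 1 and 0.21 on day 2. Probe set 1435448_at read 215.4 and 244.6 in sanroque, against 171.5 and 184.8 in wild type, a change of 0.36 with an interval of -0.04 to 0.76 (limma adjusted p = 0.578). This probe set had nearly the same change on each day, 0.32 on day 1 and 0.39 on day 2.

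Of the remaining Bcl2l11 probe sets, 1456006_at read 53.3 and 44.9 in sanroque, against 44.2 and 43 in wild type, with sanroque just above and a change of 0.15. Probe set 1435449_at overlapped, with 105.2 and 94.4 in sanroque, against 103.9 and 89.8 in wild type (change 0.04). The dimmest of the 5, 1426334_a_at, went the other way, with 31.4 and 20 in sanroque, against 35.8 and 35.2 in wild type (change -0.41, interval -1.22 to 0.39, limma adjusted p = 0.816). Its change minus that of 1456005_a_at was -0.78 on day 1 and -0.87 on day 2, a pair chosen after its values were seen and not tested. Neither probe set overlapped between genotypes, so the sign of this difference on both days was fixed in advance. Bcl2l11 is spliced into several forms, and which of them each probe set reads was not looked up here.

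Bbc3 encodes PUMA, a BH3-only protein induced by p53 and by FOXO factors. It read 74.3 and 73.6 in sanroque, against 64.4 and 36.8 in wild type. The sanroque arrays were almost level with each other and above both wild type arrays, of which array 2 was far the lower. The change was 0.54 with an interval of -0.08 to 1.16 (limma adjusted p = 0.586), and it was 0.19 on day 1 and 0.90 on day 2. Without wild type array 2 it was 0.18, and without wild type array 1 it was 0.90, and neither passed.

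Bid encodes a BH3-only protein that caspase-8 cleaves, which links death receptors to the mitochondria. Its tested probe set, 1417045_at, read 99 and 91 in sanroque, against 70.9 and 93.9 in wild type, with overlap and a change of 0.20 (interval -0.28 to 0.69). It was 0.45 on day 1 and -0.04 on day 2. The other Bid probe set, 1448560_at, lay below the filter and differed more between days than between genotypes, at 4.8 and 25 in sanroque, against 8 and 20.7 in wild type.

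Bad encodes a BH3-only protein that growth factor kinases hold in check by phosphorylation. Its brighter probe set, 1416582_a_at, read 68.4 and 43.7 in sanroque, against 64.7 and 51.9 in wild type, with overlap and a change of -0.07. The dimmer one, 1416583_at, read 33.4 and 33.7 in sanroque, against 19.2 and 30.4 in wild type, without overlap and with a change of 0.39 (interval -0.44 to 1.21, limma adjusted p = 0.844). Pmaip1 encodes NOXA, a BH3-only protein that binds MCL-1. It read 21.4 and 33.6 in sanroque, against 22.2 and 31.4 in wild type, so that arrays of a day resembled each other and genotypes did not differ beyond their spread (change 0.02, interval -0.86 to 0.91).

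**Figure D3:**
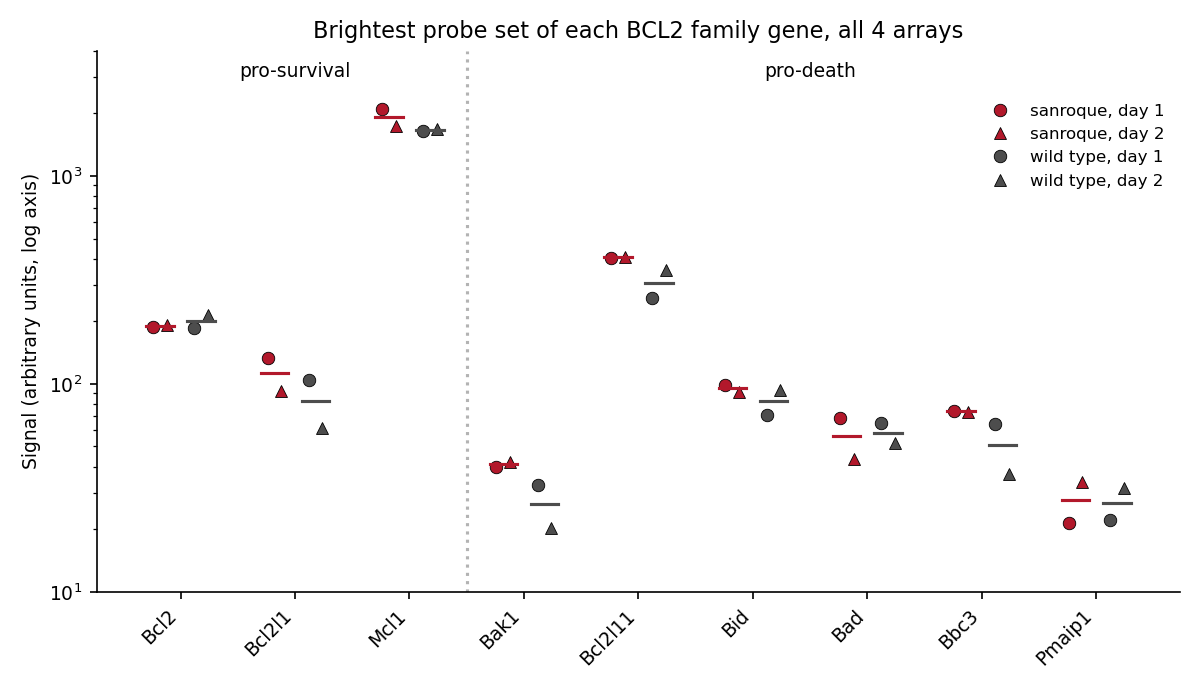
Signal (log axis, arbitrary units) of the brightest probe set of each of the 9 BCL2 family genes on the 4 arrays, sanroque left of wild type, circles for day 1 and triangles for day 2, with lines at the genotype means. Sanroque lies above wild type without overlap for Mcl1, Bak1, Bcl2l11 and Bbc3, and the genotypes overlap for the other 5 genes. Of all 7864 genes tested, 1753 lie above without overlap.

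Set side by side by role, with each gene read by its brightest tested probe set, the 6 pro-death genes had a median change of 0.31 and the 3 pro-survival genes one of 0.20, and the median over all 7864 genes tested was 0.03. That pro-survival median is the value of Mcl1 1437527_x_at, 1 of 6 Mcl1 probe sets that differ in direction. Of the pro-death genes 5 were above 0, as were 2 of the 3 pro-survival genes and 54.2% of all genes. None of the 9 genes passed, against 0.776% of all genes that rose and 0.331% that fell. On day 1 the pro-death median was 0.22 and the pro-survival median 0.34, and on day 2 they were 0.14 and 0.05, so the order of the roles differed between days. When each gene was read by the mean of its tested probe sets, the pro-death median was 0.18 and the pro-survival median -0.05. No p is given for these medians, since they rest on 9 chosen genes.

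Both sanroque arrays were above both wild type arrays for 9 of 20 family probe sets, against 20.9% of all probe sets, and below them for 3 of 20, against 17.7%. The genotypes thus did not overlap for 12 of 20, against 38.7%. The change was above 0 for 15 of 20, against 52.1%. The same sign on both days was seen for 15 of 20, against 61.8% of all probe sets. These 20 are not independent, since 11 of them read Mcl1 or Bcl2l11, and the shares are given as a description. Between days, 8 of 20 probe sets were lower on day 2 than on day 1 in both genotypes and 7 were higher in both. The share of all probe sets that did so was not counted. The limma test of the day called 1 of 20, against 4.8% of all probe sets.

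**Figure D4:**
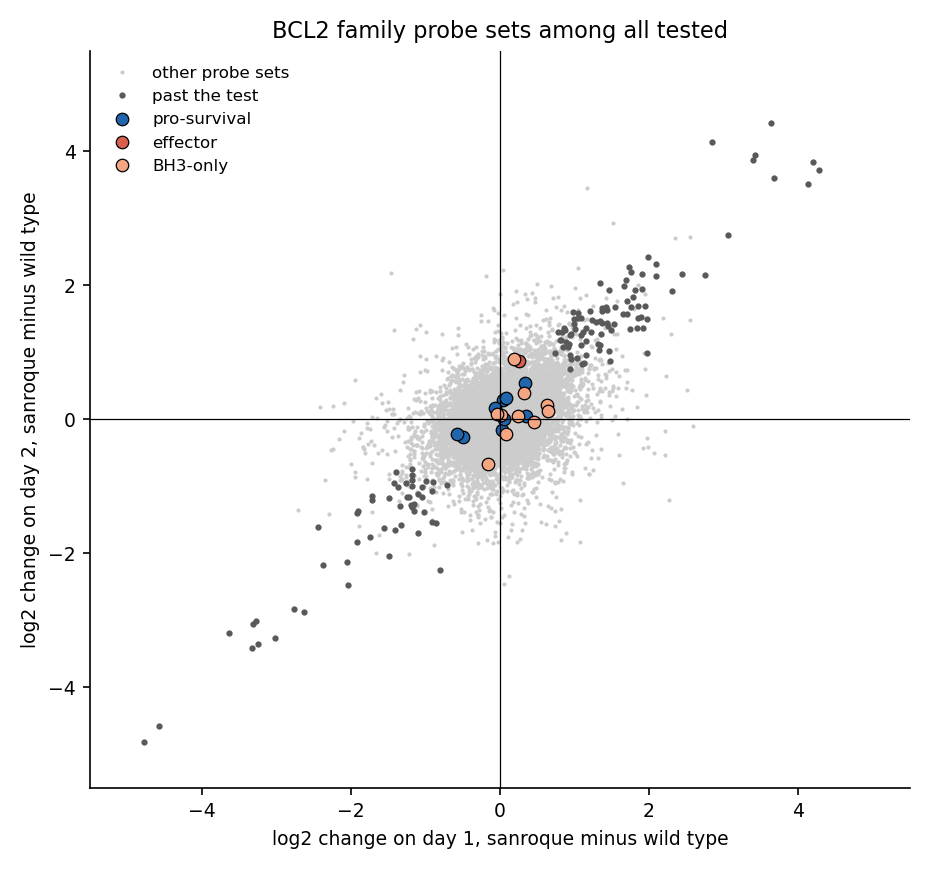
Log2 change within day 1 (horizontal) and within day 2 (vertical), sanroque minus wild type, for all 13585 tested probe sets (light grey), those past the limma test (dark grey) and the 20 BCL2 family probe sets (coloured by role). The family lies within the central cloud, between -0.58 and 0.64 on day 1 and between -0.66 and 0.90 on day 2; 144 of all probe sets passed.

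Around the family, 115 genes of the cell death pathway and its control were read in 6 lists, in which 1 gene of the caspase list and 1 of the death receptor list rose and none fell. Over all genes tested, 0.776% rose and 0.331% fell. Of 14 tested genes of the apoptosome and caspase list, which holds APAF1, cytochrome c, the caspases and the nucleases downstream of them, 1 rose and 13 did not pass, and the list median was -0.17. Without overlap, 3 of the 14 lay above wild type and 7 below, against 1753 above and 1283 below of all 7864 genes tested. The same counts were 7 and 0 of 16 inhibitors of apoptosis, 4 and 0 of 13 death receptor genes and 6 and 9 of 28 regulators. They were 2 and 3 of 13 genes of the pore and fission list and 1 and 0 of 5 further BCL2 relatives. The caspase list gene that rose was Casp1, which encodes the caspase that matures interleukin-1 beta in inflammasomes and is not a step of the mitochondrial pathway. It read 188.9 and 215.8 in sanroque, against 102.2 and 99.5 in wild type, a change of 0.96 with an interval of 0.55 to 1.38 (limma adjusted p = 0.0393). Casp1 passed in 5 of 12 alternative fits, with adjusted p-values from 0.000265 to 0.21, and did not without sanroque array 1 (0.0636), sanroque array 2 (0.19) or wild type array 2 (0.0694). Its relative Casp4, also an inflammatory caspase gene, read 96.7 and 97.9 in sanroque, against 38.9 and 55.2 in wild type, a change of 0.98 that did not pass (limma adjusted p = 0.111). It passed with the day as a block (0.00222) and without wild type array 2 (0.0474). Caspase-1 is abundant in myeloid cells, whose marker genes were higher on the same arrays, and their part in this difference was not tested.

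Of the genes that act directly after the BCL2 family, Diablo, whose product is released from mitochondria to free caspases from their inhibitors, had a bright probe set at 144.2 and 143.2 in sanroque, against 150.2 and 153.5 in wild type (change -0.08). Its dim probe set had a change of -0.83 with an interval of -1.78 to 0.12. Of 13 tested death receptor pathway genes 1 rose and 12 did not pass, with a median of 0.13. Tnfrsf1b, which encodes TNF receptor 2, a receptor without a death domain, read 134.7 and 159.6 in sanroque, against 70.4 and 68.3 in wild type, a change of 1.02 with an interval of 0.57 to 1.47 (limma adjusted p = 0.0433). It passed in 5 of 12 alternative fits (adjusted p from 0.000316 to 0.221), and did not without sanroque array 1 (0.0599), sanroque array 2 (0.221) or wild type array 2 (0.0712). A second Tnfrsf1b probe set had a change of 0.28 and overlapped. In the blocked fit 2 genes of each of these lists rose, Casp4 with Casp1 and Tnfrsf25 with Tnfrsf1b, where 6.04% of all genes were called. Tnfrsf25, which encodes death receptor 3, read 223 and 272.7 in sanroque, against 151.1 and 166.1 in wild type (change 0.62, limma adjusted p = 0.226, and 0.0141 with the block).

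None of the 16 tested inhibitors of apoptosis passed, with a median of 0.13. The largest differences without overlap were those of Naip5, which encodes an inflammasome sensor for flagellin, with 34.7 and 38.5 in sanroque, against 14.1 and 12.5 in wild type (change 1.14, limma adjusted p = 0.372), and of Birc5, which encodes survivin, a protein of dividing cells, with 66.2 and 40.1 in sanroque, against 28 and 25.2 in wild type (change 0.82, limma adjusted p = 0.433). One of 3 Birc6 probe sets had -0.81 and passed with the block (limma adjusted p = 0.0429, against 0.392 without it), and the other 2 overlapped at -0.12 and -0.10. Among 5 tested further BCL2 relatives none passed, with a median of -0.03, and Bcl2l13 had the largest difference without overlap, 85 and 67.3 in sanroque, against 65 and 49.8 in wild type (change 0.38). None of 13 tested genes of the mitochondrial pore and fission list passed either. Its median was 0.07, with changes from -0.25 to 0.40 on each gene's brightest probe set. The list was drawn to include the fusion genes Mfn1, Mfn2 and Opa1, as well as Bcap31 and Tmem173. A dim probe set of Ppif, which encodes cyclophilin D, had -0.80, and one of Dnm1l, which encodes the fission protein DRP1, had -0.54, both without overlap. Neither passed (limma adjusted p = 0.578 and 0.732). The brighter Ppif probe set went the other way, with 0.19 and overlap. The brighter Dnm1l probe sets had -0.26, without overlap, and -0.03, with overlap.

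Of 28 tested genes known to control the family, such as cytokine receptors, kinases, FOXO factors and stress regulators, none passed and the median was -0.02. In the blocked fit 4 rose and 3 fell, against 6.04% of all genes called. Atf4, a transcription factor of the integrated stress response, was lower on both of its probe sets. The brighter read 410.3 and 504.7 in sanroque, against 775.6 and 951.9 in wild type, a change of -0.91 on each day (limma adjusted p = 0.0514, and 4.86e-05 with the block). The dimmer had a change of -1.20 (limma adjusted p = 0.0755, and 1.1e-05 with the block). It passed without sanroque array 1 (0.00418), without wild type array 2 (0.00532) and after median centring of the arrays (0.00753). Il2rb, a receptor chain for interleukin-2 and interleukin-15, read 160.9 and 211.7 in sanroque, against 113.7 and 76.4 in wild type, a change of 0.94 (limma adjusted p = 0.114, 0.00134 with the block and 0.00271 without wild type array 1). One probe set of Mapk8, which encodes the kinase JNK1, had -1.21, while its brightest probe sets had -0.49 and -0.21, and none of the 3 passed the main test. The first passed with the block (limma adjusted p = 0.00244), with each array centred on its median (0.0274) and without wild type array 1 (0.0383).

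**Figure D5:**
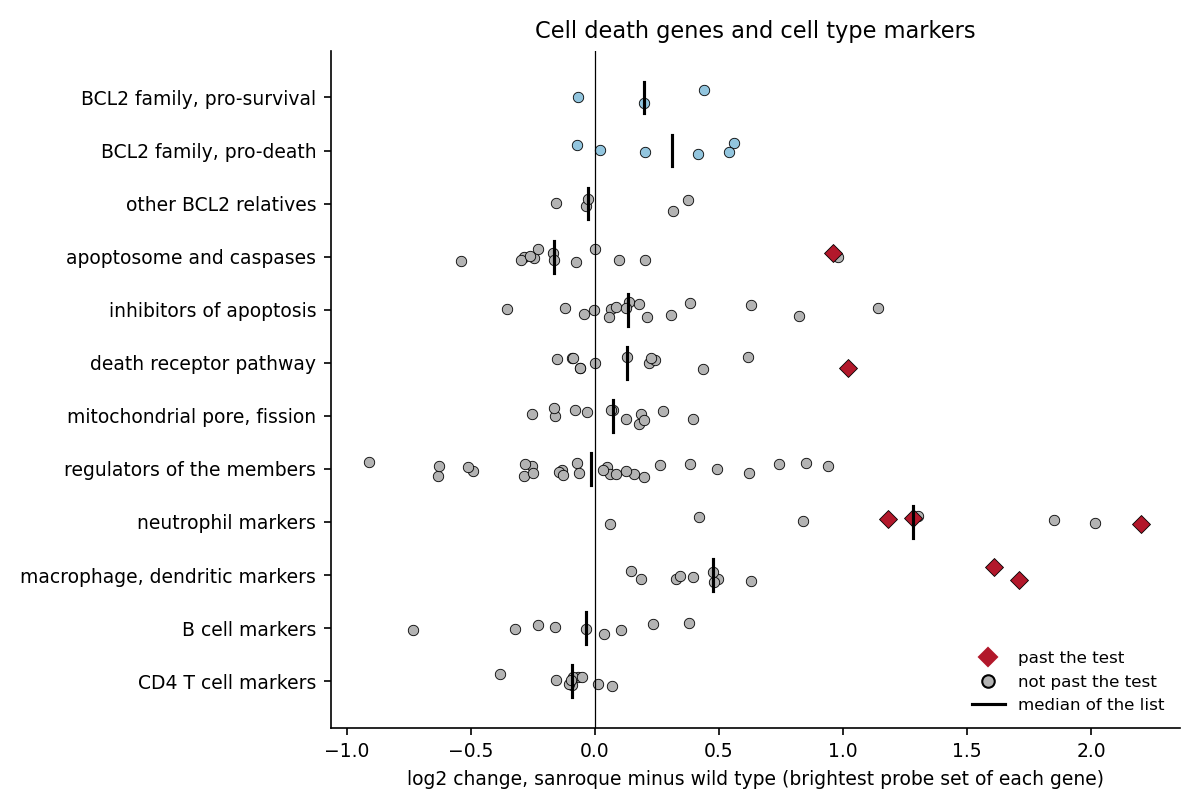
Log2 change, sanroque minus wild type, of each gene's brightest probe set, by list; red diamonds passed the limma test, and black lines mark list medians. No BCL2 family gene passed; Casp1 and Tnfrsf1b are the cell death genes that did, and neutrophil markers have a median of 1.28, against -0.09 for CD4 T cell markers.

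Without the block, 1448503_at of Mcl1 and 1456005_a_at of Bcl2l11 had the same lowest adjusted p of the family (0.516 by limma), and with the block it was lowest for 1448503_at. The genes whose centred log2 values over the 4 arrays lay closest to 1448503_at were Gatad2a, Tsr2 and Adcy9, at Euclidean distances of 0.03, 0.04 and 0.05. All of them are dim by comparison, at 21.5 to 29.9 in sanroque, against 27.3 to 47.2 in wild type, and none passed the test. Likeness over 4 arrays is a description, with many probe sets to choose from.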

How the data were processed

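RNA of CD4 cells was measured on 4 arrays, whose type (MOE430A) stands in the deposited experiment information. Values in the deposited table are probe set intensities on a linear scale; how the authors summarised probes and corrected background is not given in the sources used here. Mean signals trimmed at the outer percentiles were equal on the 4 arrays (99.99), so the authors had scaled them, and no further scaling was applied. The number of arrays limits the precision.

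Symbols came from the platform's annotation: 20393 probe sets had 1 symbol, of which 20364 matched a gene identifier of the RefSeq table, 691 had several and 1555 others none. Control probe sets (64) and those whose mean lay under the 40th percentile (21.3) were left out. Log2(signal + 6) was fitted by limma 3.58.1 (lmFit, eBayes with a variance trend, R 4.3.3), two-sided and without covariates. The estimated changes were checked on simulated arrays drawn without a shared day, so that check does not bear on false calls in these data. Same-numbered arrays shared a hybridisation day, and their deviations from the genotype means correlated at 0.391 over probe sets (2 pairs); the day block was an alternative, beside 2 normalizations, pseudocounts of 1 and 24, 2 filters, no variance trend and each array left out.

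Members and lists were chosen with earlier results of these data known. All members were named. From each other list of cell death genes, those past the test were named, with some of the up to 3 with the largest change without overlap. Markers named in the text are examples from their lists. For lists each gene was read by its brightest tested probe set. Figures were drawn with matplotlib 3.10.9.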

Additional observations from a re-analysis of the deposited data

How the results depend on the processing

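No BCL2 family probe set passed under any of the 12 alternatives run; the lowest adjusted p was 0.0888, with the replicate block. Filters, variance trend and block leave a log2 change as it is. Of the 160 family changes recomputed under the other 8 alternatives, 144 kept their sign and 16, on 6 probe sets, turned round. With each array centred on its median, Mcl1 1456243_x_at had -0.058, Mcl1 1456381_x_at -0.036, Bcl2l11 1435449_at -0.047 and Pmaip1 -0.068, and under quantile normalization Pmaip1 had -0.11. With single arrays left out, where a lone array is assumed to vary like the other genotype, the changes ranged from -0.17 to 0.036 for Bcl2, -0.065 to 0.13 for Mcl1 1456243_x_at, -0.12 to 0.22 for Mcl1 1456381_x_at, -0.057 to 0.14 for Bcl2l11 1435449_at, -0.36 to 0.22 for Bad 1416582_a_at and -0.25 to 0.29 for Pmaip1. For the markers they ranged from -0.30 to 0.12 for Cd3d, -0.39 to 0.069 for Ms4a1 and -0.41 to 0.24 for Gzma, and Cd3d had 0.033 under quantile normalization. In the main fit these changes lay between -0.16 (Ms4a1) and 0.05 (Mcl1 1456381_x_at). Leaving out 1 array moved them as far as -0.41 (Gzma) and 0.29 (Pmaip1), and the cause was not tested.

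The pro-death median was 0.22 with median centring, 0.27 with a pseudocount of 24, 0.42 with the filter at the 60th percentile (fewer genes tested), 0.18 when the probe sets of a gene were averaged and 0.13 to 0.36 with single arrays left out. The pro-survival median was 0.11 with median centring, 0.29 with quantile normalization (0.31 for the pro-death median), -0.050 when probe sets were averaged and 0.068 to 0.33 with single arrays left out. Of all probe sets, 144 passed in the main fit, 56 without the filter, 45 without the variance trend, 852 with the replicate block and 109 to 360 with single arrays left out, the highest without wild type array 1. The blocked fit changed no call of a family probe set. The number of arrays and the dimness of several probe sets limit what can be seen. An interval that leaves out 0 was not enough to pass the adjusted test. The brighter Atf4 probe set, at -0.91 with an interval of -1.32 to -0.49, did not pass (limma adjusted p = 0.0514). Changes somewhat larger than the reach of the intervals could therefore also be missed.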
